A study of Mus musculus with 287 samples.

Results

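The cells compared were those with a high and those with a low mitochondrial share of RNA among single cells of mouse cerebral organoids. The share was the exon counts of genes whose symbol starts with mt-, as a percentage of all exon counts of the cell. Left out were 3 libraries without a clone label and 37 with an exon count in fewer than 1000 genes, which kept 86.1% of all libraries. Cells were selected on this share: 44 cells at or above 10% (17.8% of the kept cells, 15.3% of all libraries) formed the high class, 62 cells at or below 3% (25.1% of the kept cells, 21.6% of all libraries) formed the low class, and the other 57.1% of the kept cells lay between. The organoids were grown from mouse embryonic stem cells of the genotype MADM-11GT/TG;Emx1-CreER+/-, which all cells share, whatever their class. MADM (mosaic analysis with double markers) marks the progeny of a recombined dividing cell green or red, and Emx1, a homeobox gene of the dorsal forebrain, drives the tamoxifen-activated Cre. Organoids were given 60 nM 4-hydroxytamoxifen on day 13 and collected on day 20, and fluorescent cells were drawn singly into glass pipettes for Smart-seq3, a full-length RNA method. The labels place every cell on 1 of 3 plates and give its colour and its clone, with the size of that clone and its type. The types are SN and N, whose meaning the labels do not state. No organoid or culture was named, so p-values measure the spread between clone sums or clone means. Clones can share an organoid, so these p-values may be too small.

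Mitochondria keep a small circular genome of their own, which encodes 2 ribosomal RNAs, 22 transfer RNAs and 13 messenger RNAs for subunits of the respiratory chain and ATP synthase. All other mitochondrial proteins, including the mitochondrial ribosome, are encoded in the nucleus, made in the cytosol and imported. In single-cell RNA work a high mitochondrial share is commonly used as a mark of a damaged or leaking cell, and it also differs between cell types with their mitochondrial content. The comparison therefore asks which nuclear genes, if any, differ between cells at the ends of this scale.

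The mitochondrial share, which chose the cells and is given only as a description, ran over 10.3%, 12.6% and 28.9% (lowest, median and highest) in the high class and over 0.112%, 1.82% and 2.99% in the low class. Shares ran on across both limits, as the values on either side of them show. The 3 cells just inside the upper limit all had 10.3%, and the 3 just outside it had 9.67%, 9.67% and 9.72%. At the lower limit the 3 cells just inside had 2.94%, 2.97% and 2.99%, and the 3 just outside had 3.03%, 3.04% and 3.06%. The classes also differed in the denominator of the share. Exon counts of nuclear genes per cell had a median of 700134 in the high and 2064062 in the low class, and mitochondrial exon counts a median of 108461 in the high and 30443 in the low class. Detected nuclear genes had a median of 4112 in the high class and 5248 in the low class.

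**Figure D1:**
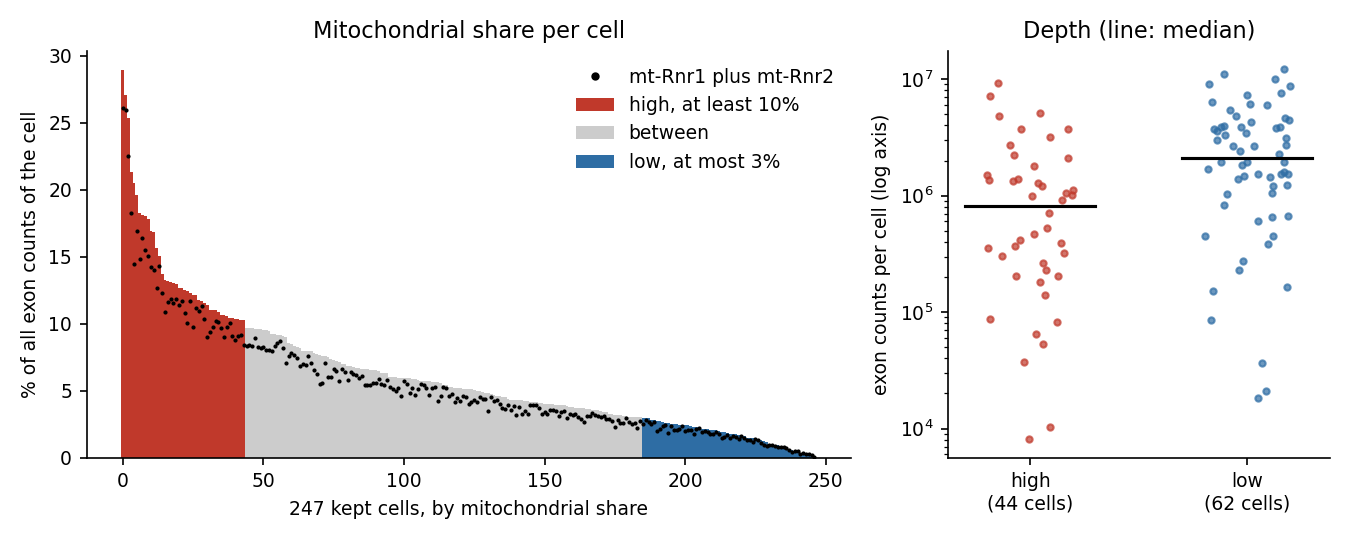
Left, the mitochondrial share of each kept cell as a percentage of its exon counts, in falling order, with black points for mt-Rnr1 plus mt-Rnr2. Right, exon counts per cell on a log axis with the class median as a line, 814385 in high and 2109960 in low cells. The ribosomal RNA points follow the bars closely, and the depths of the classes overlap.

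Most mitochondrial counts came from the genes of the mitochondrial ribosomal RNAs, mt-Rnr1 (12S) and mt-Rnr2 (16S), in both classes alike. Together they held a median of 88.7% (70.3% to 96.9%) of the mitochondrial counts in high cells and 89.1% (71.2% to 99.8%) in low cells. As a percentage of all exon counts, mt-Rnr1 had a median of 5.57% (2.10% to 19.9%) in high and 0.687% (0.0153% to 1.63%) in low cells. For mt-Rnr2 the median was 5.75% (3.02% to 13.6%) in high and 0.835% (0.0697% to 1.98%) in low cells. Within the mitochondrial counts, mt-Rnr1 had the larger median in high cells (43.3%, against 39.7% for mt-Rnr2), whereas in low cells mt-Rnr2 did (51.9%, against 35.4% for mt-Rnr1). The 13 messenger RNA genes together held a median of 11.3% of the mitochondrial counts in high and 10.9% in low cells, and the 22 transfer RNA genes 0.0100% and 0.0057%. Among messenger RNA genes, mt-Co1, a cytochrome c oxidase subunit, had a median of 3.50% of mitochondrial counts in high and 3.28% in low cells. The complex I subunit gene mt-Nd1 had 2.7% in high and 2.45% in low cells, and mt-Cytb, the cytochrome b gene of complex III, had 1.67% in high and 1.76% in low cells.

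The 13 messenger RNA genes were not all counted. Of them, 7 had a count in at least 87.9% of the kept cells, while the other 6 had one in at most 5 cells. These were mt-Atp6 and mt-Atp8 of ATP synthase, mt-Co2 and mt-Co3 of cytochrome c oxidase, and mt-Nd3 and mt-Nd4l of complex I. For 5 of these 6 genes a stretch of nuclear chromosome 1 carries an annotated pseudogene copy with 99.71% to 100% identical bases, so a read can map to either place. The table held 17 nuclear pseudogene copies of mitochondrial messenger RNA genes, on several chromosomes, with 90.67% to 100% identical bases where aligned. Since they carry no mt- prefix, their counts entered the nuclear total.

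The copy that bears on the results is Gm28438, a nuclear pseudogene copy of mt-Nd3 (GRCm38 chr1:24612775-24613119, minus strand, unprocessed pseudogene of 345 bases). Over its 345 aligned bases it differs from mt-Nd3 (GRCm38 chrM:9459-9806, plus strand) at 1 base. The first 63 bases of both, from the GENCODE M21 transcripts on build GRCm38 and with the base that differs in capitals, are shown to make plain how little separates them.
Gm28438: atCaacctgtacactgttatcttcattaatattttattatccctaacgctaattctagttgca
mt-Nd3: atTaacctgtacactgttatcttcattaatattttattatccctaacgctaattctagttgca
A read that does not cover that base cannot be assigned to one or the other. The gene mt-Nd3 was listed at 0 in all kept cells, and Gm28438 had a count in 41 of 44 high and 38 of 62 low cells. Per 100000 mitochondrial counts, Gm28438 had a median of 17.9 counts in high and 14.5 in low cells, and the 17 copies together 22.4 in high and 24.5 in low cells. Summed over the cells, Gm28438 came to 23.2 per 100000 mitochondrial counts in high and 30.8 in low cells, a sum in which the deepest cells weigh most, so the median and the sum order the classes differently.

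For the comparison of nuclear genes, the cells of each clone and class were pooled into 1 sum of counts, which gave 28 high sums and 30 low sums from 46 clones. Of the 46 clones, 12 held cells of both classes, 16 only high and 18 only low cells among those compared, and 16 high and 16 low sums were of a single cell. The main edgeR test took all sums as independent and did not pair the high and low sums of a clone. High cells were 18 of 90 on plate 1, 16 of 80 on plate 2 and 10 of 77 on plate 3, and low cells were 20, 16 and 26 on the same plates. By clone type, SN clones had 29 high and 22 low cells with 80 between, and N clones had 15 high and 40 low cells with 61 between. By colour, green cells were 22 high and 43 low with 88 between, and red cells were 22 high and 19 low with 53 between. Clone 16, an N clone labelled with 19 cells, held 8 of the low and none of the high cells. Clone 45, an N clone, was the only one on 2 plates: its 3 high cells were on plate 3, and of its 3 low cells 2 were on plate 2 and 1 on plate 3, so its low sum entered the fit as plate 2. No pair of cells correlated above 0.95 in log2(CPM + 1), where CPM is counts per 1000000, so no library was taken for a copy of another.

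Both classes held cells with the RNA of cortical neurons and of their progenitors. Stmn2, a microtubule regulator of growing neurons, had a count in 44 of 44 high and 58 of 62 low cells, with a median of 3068 CPM in high and 2180 CPM in low cells. The neuronal tubulin Tubb3 was counted in 41 of 44 high and 59 of 62 low cells, and Neurod6, a bHLH factor of excitatory cortical neurons, in 37 of 44 high and 55 of 62 low cells. Fabp7, the fatty acid binding protein of radial glia, the cortical progenitors, was counted in 44 of 44 high and 56 of 62 low cells, with medians of 1791 CPM in high and 1273 CPM in low cells. The progenitor factors Sox2 (28 of 44 high, 42 of 62 low) and Pax6 (18 of 44 high, 36 of 62 low) were counted in fewer cells. Emx1 itself, the gene named in the Cre driver, had a count in 12 of 44 high and 22 of 62 low cells.

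Markers of other cell types were present at differing levels. The 10 astrocyte genes summed to a median of 0.0514% (0% to 0.286%) of nuclear counts in high and 0.0317% (0% to 0.259%) in low sums, lower in the high class in 3 of the 12 clones that held both. The 10 Cajal-Retzius genes came to a median of 0.0216% (0% to 0.499%) in high and 0.00738% (0% to 0.275%) in low sums, lower in the high class in 5 of those 12 clones. Reln, which these early-born neurons secrete, had a count in 25 of 44 high and 34 of 62 low cells, and the astrocyte genes Gfap (13 of 44 high, 15 of 62 low) and Aqp4 (13 of 44 high, 16 of 62 low) in fewer. For comparison, the intermediate progenitor list held 0.0154% in high and 0.0248% in low sums. The 12 GABAergic neuron genes summed to a median of 0.00249% of nuclear counts in high and 0.00397% in low sums, and the 12 choroid plexus and hem genes to 0.00194% in high and 0.00367% in low sums. The microglia and endothelium list came to a median of 0.000375% in high and 0.000230% in low sums, with 2 of its 12 genes at 0 in high cells. The 12 mesenchyme genes had a median of 0.0201% (0% to 0.162%) in high and 0.00226% (0% to 0.0683%) in low sums. Their summed level was lower in the high class in 2 of the 12 clones that held both. The 10 oligodendrocyte lineage genes had a median of 0.00292% in high and 0.00507% in low sums. The part of RNA of these cell types in the results was not tested. Of the 6 pluripotency genes, any had a count in 3 of 44 high and 7 of 62 low cells, and 3 were at 0 in all high cells, Pou5f1 among them (2 of 62 low cells).

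No nuclear gene passed the test between high and low cells. With edgeR's quasi-likelihood F test, with plate and the number of detected genes as covariates, 0 of 5856 genes tested passed a Benjamini-Hochberg adjusted p of 0.05, in either direction (0% called). With no adjustment of p and the same threshold, 1.98% of the genes were higher and 1.95% lower in high cells. By limma-voom with a clone correlation 1 gene passed, the mt-Nd3 copy Gm28438, and by DESeq2 4 passed, all higher in high cells. Without the filter on low counts 4208 genes passed in edgeR, which had a count in a median of 3 cells of both classes together, against 55 for the genes tested, and 17 of them were among the 5856. The median log2 fold change over all genes tested was 0.01, and the median standard error of a gene was 0.906 on the log2 scale, which holds the spread between clones as well as counting error. Fold changes below are log2 values of high over low with their standard error, and CPM values are the lowest, median and highest over the clone sums.

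The smallest adjusted p among higher genes belonged to Gm28438. It had 0, 35.1 and 130 CPM in high sums and 0, 5.75 and 37.9 CPM in low sums, a log2 fold change of 2.89 ± 0.68 (adjusted p = 0.327 in edgeR, 0.00354 in limma-voom and 2.45e-10 in DESeq2). The ranges overlapped, with most high sums above most low sums, and in the 12 clones that held both classes it was higher in high cells in 10. Reads of mt-Nd3 that miss the base that differs could be counted here, and the mitochondrial counts chose the classes. The level of Gm28438 is therefore uncertain as a measure of a nuclear gene, and the part of such reads in its difference was not tested.

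Beside it, the leading higher estimates belonged to Rab22a, a small GTPase of endosomes, Col4a1, a collagen chain of basement membranes, and Nucb1, a calcium-binding protein of the Golgi. Rab22a had 0, 15.6 and 419 CPM in high and 0, 0.499 and 176.9 CPM in low sums (log2 4.15 ± 1.12, adjusted p = 0.575 in edgeR and 0.0401 in DESeq2). Col4a1 had 0, 18.2 and 277.2 CPM in high and 0, 0.236 and 84.1 CPM in low sums (log2 4.08 ± 1.13, adjusted p = 0.575 in edgeR). Nucb1 had 0, 4.53 and 317 CPM in high and 0, 1.34 and 116.3 CPM in low sums (log2 3.58 ± 1.03, adjusted p = 0.649 in edgeR and 0.0194 in DESeq2). In all 3 the ranges overlapped and many sums of both classes were at 0, as Rab22a shows with a count in 20 of 44 high and 24 of 62 low cells. The fourth gene past the threshold in DESeq2 was Skil, a repressor of SMAD signalling (log2 3.41 ± 0.78, adjusted p = 0.0223 in DESeq2). The leading unnamed gene besides Gm28438 was Gm49336, at 2.63 ± 1.03 (adjusted p = 0.997).

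Among lower estimates, Dnajb1, a co-chaperone of the heat shock response, led. It had 0, 0 and 72.4 CPM in high and 0, 22.8 and 401 CPM in low sums, with a count in 9 of 44 high and 30 of 62 low cells (log2 −4.04 ± 1.00, adjusted p = 0.327 in edgeR and 0.0560 in DESeq2). Becn1, which starts autophagosome formation, had 0, 0 and 105.3 CPM in high and 0, 33.0 and 562 CPM in low sums (log2 −3.57 ± 0.99, adjusted p = 0.575). Acap2, a GTPase-activating protein for Arf6, had 0, 0 and 315 CPM in high and 0, 37.8 and 4092 CPM in low sums (log2 −3.56 ± 1.00, adjusted p = 0.575). Its intron counts gave an estimate of the other sign (1.09 ± 0.82, adjusted p = 0.721 in edgeR). The median of the high sums was 0 for each of these 3 genes, and the ranges overlapped. When the leading unnamed ID, described further on, was left out of the share and the totals, Dnajb1 stood at −2.18 ± 0.91, Becn1 at 0.10 and Acap2 at 0.77. With limits of 8% and 4% these genes stood at −1.05 ± 0.67, −0.13 and −1.60. Of the higher genes, Nucb1 stood at 1.51 with those limits and Rab22a at 2.23 without that ID. Of unnamed genes, 4833420G17Rik (−3.11 ± 1.13) and Gm26871 (−2.47 ± 1.05) had the lowest p among lower estimates, each with an adjusted p of 0.997.

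**Figure D2:**
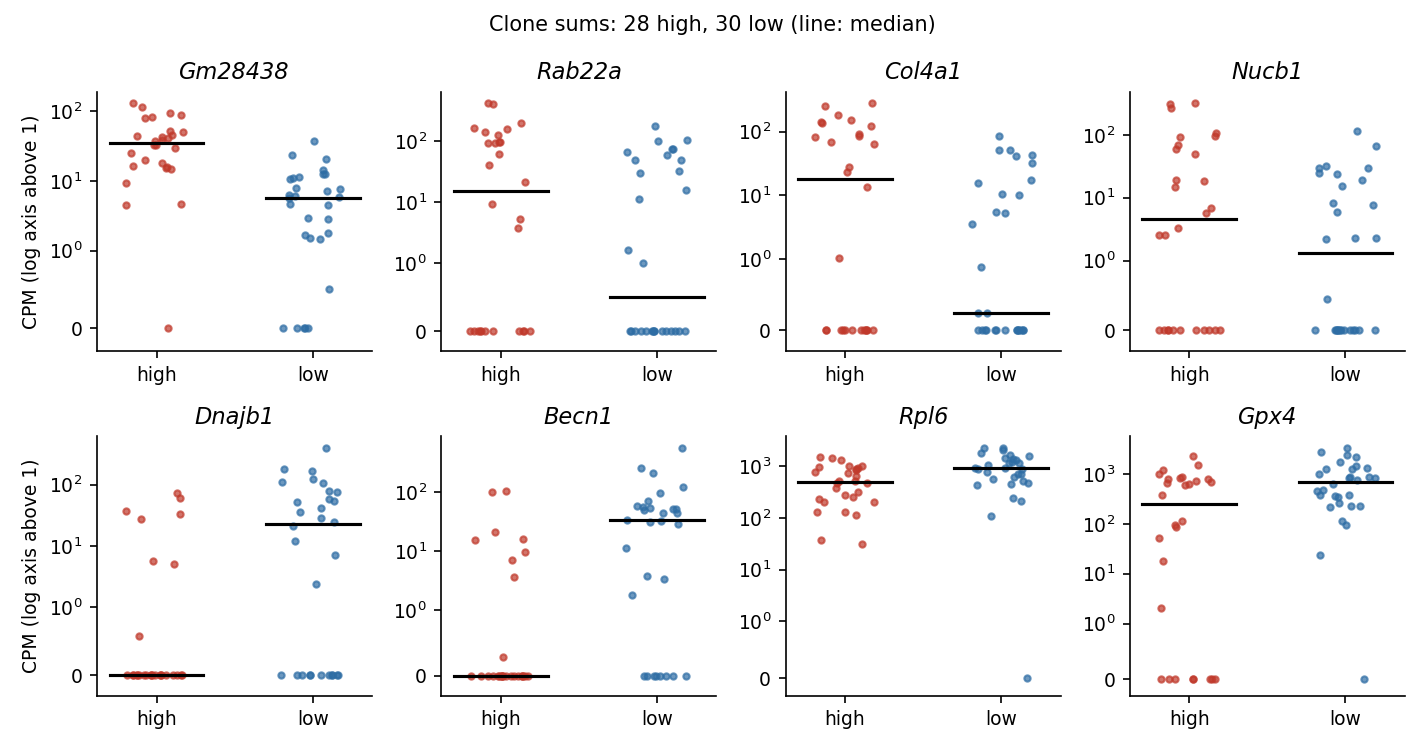
CPM of 8 genes in each clone sum, on an axis that is logarithmic above 1, for 28 high sums (left, red) and 30 low sums (right, blue), with the median as a line. Gm28438 shows the clearest shift, with medians of 35.1 and 5.75 CPM, and all 8 genes overlap between the classes.

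Genes of the nuclear-encoded mitochondrial proteins were not called in either direction, and most estimates lay below 0. Of 77 tested genes for nuclear-encoded subunits of the respiratory chain, 20 lay above 0 and 57 below, with a median of −0.23, against 0.01 over all genes tested. The lowest p among them was that of Ndufa7, an accessory subunit of complex I, with 0, 76.8 and 316 CPM in high and 0, 202.4 and 580 CPM in low sums (−1.19 ± 0.59, adjusted p = 0.997). Of 61 genes for proteins of the mitochondrial ribosome, 17 lay above 0 and 44 below (median −0.58). Mrpl19 and Mrpl50, both of its large subunit, had the lowest p. Mrpl19 had 0, 0 and 114.5 CPM in high and 0, 46.5 and 832 CPM in low sums (−3.08 ± 0.98, adjusted p = 0.997), and was lower in high cells in 8 of the 12 clones with both classes and higher in 2. Mrpl50 had an estimate of −2.11 ± 1.03. The import machinery had 8 of 29 genes above 0 (median −0.26), led by Tomm7 of the outer membrane translocase at −0.72 ± 0.48. As a summed level, the 84 respiratory chain genes held a median of 1.64% of nuclear exon counts in high and 1.70% in low sums, and the 79 mitochondrial ribosome genes 0.389% in high and 0.392% in low sums. Of the 12 clones with both classes, the respiratory chain sum was lower in high cells in 7, and the mitochondrial ribosome sum in 6.

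Other mitochondrial lists were less one-sided. Genes that maintain or express mitochondrial DNA were mostly filtered out for low counts, with 10 of 34 tested, 4 of them above 0 (median −0.18). Their lowest p was that of Lrpprc, which stabilises mitochondrial messenger RNAs (1.80 ± 1.01, adjusted p = 0.997). Its median was 0 CPM in high and 5.25 CPM in low sums, opposite to the fitted direction, and its highest high sum reached 673 CPM. Of 15 genes of mitochondrial fission, fusion and mitophagy, 9 lay above 0 (median 0.27), led by the inner membrane fusion GTPase Opa1 at 1.51 ± 0.98. The citric acid cycle had 8 of 19 genes above 0 (median −0.23), led by Idh2, the mitochondrial isocitrate dehydrogenase, at 1.75 ± 1.05. The median of Idh2 was 0.819 CPM in high and 6.19 CPM in low sums, opposite to its fitted sign. Glycolysis and hypoxia genes had 8 of 21 above 0 (median −0.28), led by the aldolase gene Aldoc at −1.56 ± 0.83. None of these genes passed the test (adjusted p = 0.997 each).

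Stress genes were not called either. Of 19 tested genes of the oxidative stress response, 2 lay above 0 and 17 below (median −0.50). Gpx4, which reduces lipid hydroperoxides, had 0, 245.4 and 2300 CPM in high and 0, 687 and 3325 CPM in low sums (−1.69 ± 0.63, adjusted p = 0.997), and was lower in high cells in 9 of the 12 clones that held both classes. The thioredoxin gene Txn1 had 0, 441 and 1275 CPM in high and 27.1, 721 and 1893 CPM in low sums (−0.79 ± 0.37) and was lower in 11 of those 12 clones, and Prdx3, the mitochondrial peroxiredoxin, had an estimate of −2.74 ± 1.02. The list as a sum held a median of 0.639% of nuclear exon counts in high and 0.896% in low sums, and was lower in high cells in 11 of the 12 clones. Of 10 heat shock genes tested, Dnajb1 among them, 7 lay above 0 (median 0.10). The integrated and endoplasmic reticulum stress list had 9 of 15 genes above 0 (median 0.12), led by Phgdh of serine synthesis at −2.0 ± 0.99. Apoptosis and p53 genes had 10 of 15 above 0 (median 0.28), led by Bcl2l1, which encodes the survival factor Bcl-xL, at 1.11 ± 0.87. The median of Bcl2l1 was 33.0 CPM in high and 40.3 CPM in low sums, opposite to its fitted sign. Immediate early genes, which respond to stimulation within minutes, had 5 of 9 above 0 (median 0.02), led by the nuclear receptor gene Nr4a3 at −2.03 ± 0.85.

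Cytosolic ribosomal protein genes lay mostly below 0, again with no gene called. Of 80 tested, 7 lay above 0 and 73 below, with a median of −0.30, and 9 of the 80 had an unadjusted p under 0.05, all lower, against 1.95% lower and 1.98% higher over all genes tested. Rpl6 had 31.9, 501 and 1521 CPM in high and 0, 912 and 2299 CPM in low sums (−0.91 ± 0.35, adjusted p = 0.997), and was lower in high cells in 11 of the 12 clones with both classes. Rpl15 (−0.88 ± 0.35) and Rps14 (−0.76 ± 0.32) followed. The ranges of the classes overlapped in all 3 genes. Their summed level had a median of 7.02% of nuclear exon counts (1.96% to 16.3%) in high and 7.38% (1.40% to 24.2%) in low sums, and was lower in high cells in 7 of the 12 clones with both. The size of the list's shift against all genes depended on the fit. Over 25 settings, the median of the list minus the median of all genes ran between −1.37 and 0.19. This difference was below 0 in 24 settings and above 0 in 1. The fits without the filter on low counts and with the share as a continuous term are not among them.

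**Figure D3:**
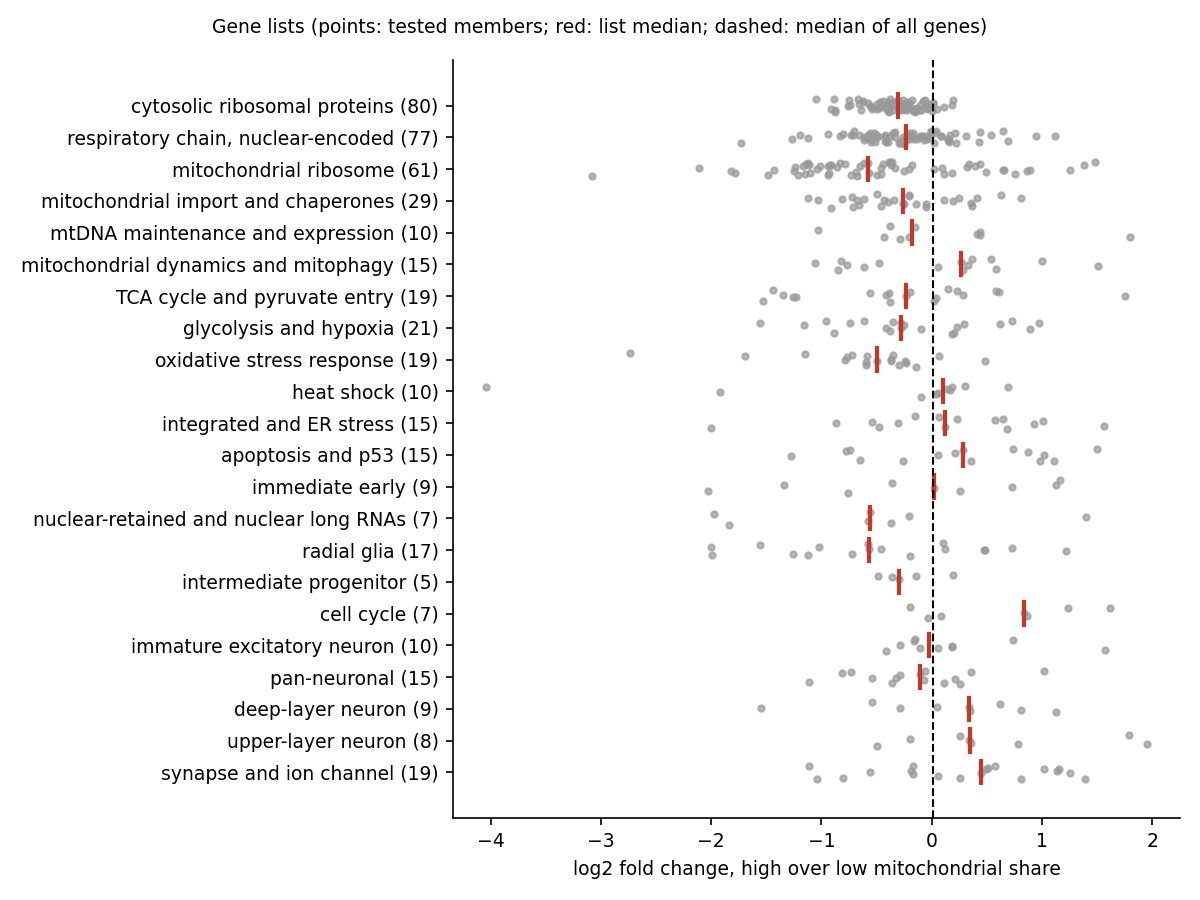
Log2 fold change of high over low for each tested member of 22 gene lists (points, number tested in parentheses), with the list median in red and the median of all 5856 genes dashed. Cytosolic ribosomal protein genes sit just below 0 in a narrow band (median −0.30), and synapse genes above it (median 0.45).

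Of 7 tested long noncoding RNAs that stay in the nucleus, 1 lay above 0 (median −0.56). Malat1, a RNA of nuclear speckles, had 829, 5187 and 21319 CPM in high and 230.7, 10243 and 41279 CPM in low sums (−0.56 ± 0.28, adjusted p = 0.997), and was lower in high cells in 9 of the 12 clones with both classes. The imprinted RNA Rian, counted in 37 of 44 high and 47 of 62 low cells, reached 200 CPM in high and 926 CPM in low sums (−1.84 ± 0.63), and Snhg11, a host gene of small nucleolar RNAs, had an estimate of −1.97 ± 0.95. Rian was lower in high cells in 10 of the 12 clones with both classes, whereas Snhg11 was higher in 7 and lower in 5 of them. All these ranges overlapped.

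Fold changes ran with exon length. Of the 5856 genes, 5848 had an exon length in the GENCODE M21 annotation, and in 5 equal groups by that length, from shortest to longest, the median log2 fold change was −0.25, −0.04, 0.09, 0.13 and 0.20. The same order held within plate 1 (−0.17 in the shortest and 0.19 in the longest group), plate 2 (0.07 and 0.86) and plate 3 (−0.14 and 0.28), and within clones that held both classes (−0.19 and 1.26). The levels moved with the fit: the shortest and longest groups stood at −0.09 and 0.21 with RLE size factors, at −0.05 and 0.24 without the leading unnamed ID, at 0.09 and 0.48 with depth in place of detected genes, and at −0.39 and −0.15 without the detected-gene covariate. Of the 80 ribosomal protein genes 62 were in the shortest group, as were 58 of the 77 respiratory chain genes, 32 of 61 mitochondrial ribosome genes and 1 of 19 synapse genes. In that group, the median was −0.28 for ribosomal protein genes, −0.26 for respiratory chain genes, −0.54 for mitochondrial ribosome genes and −0.22 for the 1018 genes of none of these 3 lists. The short genes of the first 2 lists thus lay near other short genes, and those of the mitochondrial ribosome lay further below 0. Genes are not independent replicates, and these medians are given as a description.

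**Figure D4:**
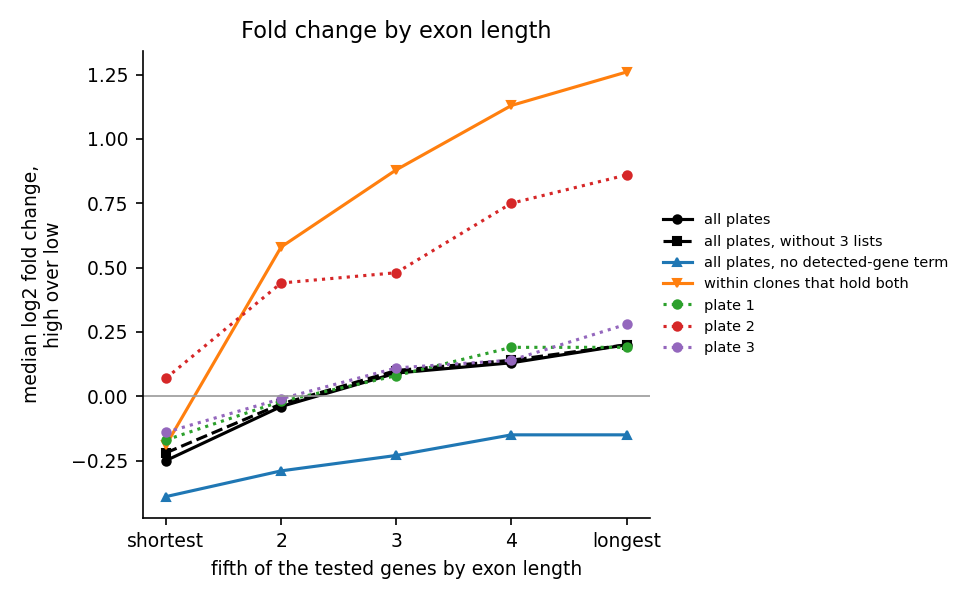
Median log2 fold change of high over low (vertical axis) in 5 equal groups of tested genes from shortest to longest exon length (horizontal axis), for all plates, without the 3 ribosomal and respiratory lists, without the detected-gene covariate, within clones that held both classes and within each plate. Each line climbs or stays level from the shortest to the longest group, between −0.25 and 0.20 in the fit over all plates.

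Genes of cell types gave no called difference between the classes. Of 17 tested radial glia genes 6 lay above 0 (median −0.57), and of 5 intermediate progenitor genes 1 did (median −0.30), led by Hes6, a bHLH factor of neurogenesis, at −0.49 ± 1.09. As a sum, the radial glia list held a median of 0.429% (0.0643% to 2.10%) of nuclear counts in high and 0.329% (0.00678% to 3.59%) in low sums, with the sign of these medians opposite to that of the fitted list median. Of 7 cell cycle genes tested 5 lay above 0 (median 0.84), and the proliferation marker Mki67 stood at 1.62 ± 1.11, with a count in 21 of 44 high and 24 of 62 low cells. The cell cycle list held the same median of 0.0784% of nuclear counts in high and in low sums.

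Neuronal lists were close to the median of all genes or above it. Pan-neuronal genes had 5 of 15 above 0 (median −0.11), led by Map2, which binds dendritic microtubules, at −0.73 ± 0.44. Genes of immature excitatory neurons had 5 of 10 above 0 (median −0.03), led by Slc17a7, a vesicular glutamate transporter, at 1.57 ± 0.94. Among layer genes, 6 of 9 of the deep layers (median 0.34) and 6 of 8 of the upper layers (median 0.35) lay above 0. Hs3st4, a heparan sulfate modifying enzyme of deep-layer neurons, stood at −1.55 ± 1.01. Cux2, a homeobox gene of upper-layer neurons, stood at 1.95 ± 0.93, with 0, 2.95 and 565 CPM in high and 0, 7.92 and 152.3 CPM in low sums, so its medians ran against its fitted sign. Of 19 synapse and ion channel genes, 12 lay above 0 (median 0.45). Emx1 stood at 0.89 ± 0.90, with a median of 0 CPM in high and 0.512 CPM in low sums, opposite to its fitted sign. None of these genes passed the test (adjusted p = 0.997 each). Of the lists of other cell types few genes could be tested. Both Cajal-Retzius genes tested lay above 0 (median 1.58), led by Reln at 1.78 ± 0.86, as did 4 of 4 astrocyte genes (median 0.39), led by the lipid carrier gene Apoe at 1.26 ± 0.84. The 1 oligodendrocyte lineage gene tested, Olig1, stood at −1.67 ± 1.00, and the 1 mesenchyme gene, Fn1, at −0.22 ± 1.35.

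Intron counts, which the rule did not use and which come mostly from unspliced RNA, gave 1 called gene among 2959 tested, lower in high cells (0.0338%), and none higher (0%). Before adjustment, 4.12% of the genes were higher and 4.16% lower at p under 0.05. The called gene was Oxct1, the mitochondrial enzyme that lets cells use ketone bodies. Its intron counts had 0, 9.48 and 97.4 CPM in high and 0, 59.0 and 1941 CPM in low sums (−3.53 ± 0.76, adjusted p = 0.0489, edgeR), with a count in 21 of 44 high and 46 of 62 low cells. High sums were mostly near the bottom of the range of low sums, and the ranges overlapped. Clone 62, which had the highest value, carries part of the call, since without it the estimate was −2.80 and no gene passed. No gene passed without clone 45, which lay on 2 plates (Oxct1 −3.53 ± 0.78, adjusted p = 0.0822), without plate 3 or within clones that held both classes, and without plate 1 or plate 2 the only gene that passed was another one, higher in high cells: Lmbr1 (6.27 ± 1.27, without plate 1) and Gm12802 (4.71 ± 1.01, without plate 2).

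The other leading intron estimates did not pass. Lower were Pacsin1, which shapes membranes in endocytosis (−2.83 ± 0.67, adjusted p = 0.107, edgeR), and Mga, a partner of the transcription factor MAX (−3.01 ± 0.83, adjusted p = 0.200). Higher were Luc7l, of the U1 splicing complex, with 0, 21.0 and 2692 CPM in high and 0, 6.61 and 491 CPM in low sums (3.31 ± 0.85), Tbce, a tubulin folding cofactor (3.43 ± 0.93), and Eif4e, which binds the messenger RNA cap (3.07 ± 0.84), each with an adjusted p of 0.200. The median of Tbce was 7.12 CPM in high and 11.4 CPM in low sums, opposite to its fitted sign. For Pacsin1 it was 24.8 CPM in high and 29.2 CPM in low sums. In the 12 clones with both classes, Pacsin1 was higher in high cells in 8 and lower in 3, against its fitted sign. Tbce was higher in 4 and lower in 6 of them, Mga 5 and 5, Luc7l 8 and 3, and Eif4e 6 and 4.

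The share of introns in nuclear counts had a median of 28.1% (12.8% to 44.6%) in high and 21.8% (11.2% to 73.3%) in low cells. In the 12 clones that held both classes it averaged 31.4% ± 6.2 in high and 25.3% ± 8.46 in low cells (SD), higher in high cells in 9 of 12, a difference of 6.11 percentage points (two-sided exact sign-flip permutation test, p = 0.0684, adjusted over 4 measures p = 0.137). In clones with cells of a single class it averaged 27.4% ± 8.26 in 16 high and 26.1% ± 12.9 in 18 low clones (two-sided permutation within plates, p = 0.726). Neither comparison passed. Nuclear exon counts enter both the intron share and the denominator of the mitochondrial share, so the measures are not wholly independent. The paired difference moved with the setting. Without clone 45, chosen after seeing the data, it was 7.33 percentage points, higher in high cells in 9 of 11 clones (exact sign-flip permutation test, p = 0.0352, adjusted p = 0.0703). With limits of 8% and 4% it was 2.57 points, and with cells of at least 2000 genes 3.21 points.

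A single gene ID without a symbol, ENSMUSG00000119584, took up a large part of the nuclear exon counts of both classes, with a median of 17.5% (4.50% to 48.3%) in high and 21.2% (2.31% to 72.4%) in low cells. In clones with both classes it averaged 21.1% ± 9.10 in high and 23.3% ± 19.5 in low cells (exact permutation test, n = 12, p = 0.788), and in clones with 1 class 18.9% ± 10.4 in high and 27.3% ± 18.2 in low clones (permutation within plates, p = 0.233). The means of clones with 1 class are taken over all plates, so their difference can hold differences between plates. Within plates 1, 2 and 3 that difference was −2.51, 3.40 and −9.36 percentage points. Because this ID sits in the denominator of the mitochondrial share, it bears on who is in a class: with it left out, 68 cells reached 10% and 45 stayed at or under 3%. All 44 high cells stayed high, and 45 of the 62 low cells stayed low. With those classes no gene passed either, of 6851 tested (2.32% higher and 1.39% lower at an unadjusted p under 0.05, edgeR).

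Gene numbers at matched depth did not pass a test between the classes. After each cell was thinned to 100000 nuclear exon counts, which left out 7 high and 4 low cells, the median was 3575 genes in high and 3368 in low cells. In the 10 clones that still held both classes the means were 4054 ± 2351 in high and 3563 ± 1525 in low cells (exact permutation test, p = 0.459), and in clones with 1 class 4113 ± 1169 in high and 4875 ± 1924 in low clones (permutation within plates, p = 0.200). The median of detected genes was higher in low cells before thinning and higher in high cells at equal depth. The mean over cells at equal depth was still higher in low cells (4346) than in high cells (3981).

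**Figure D5:**
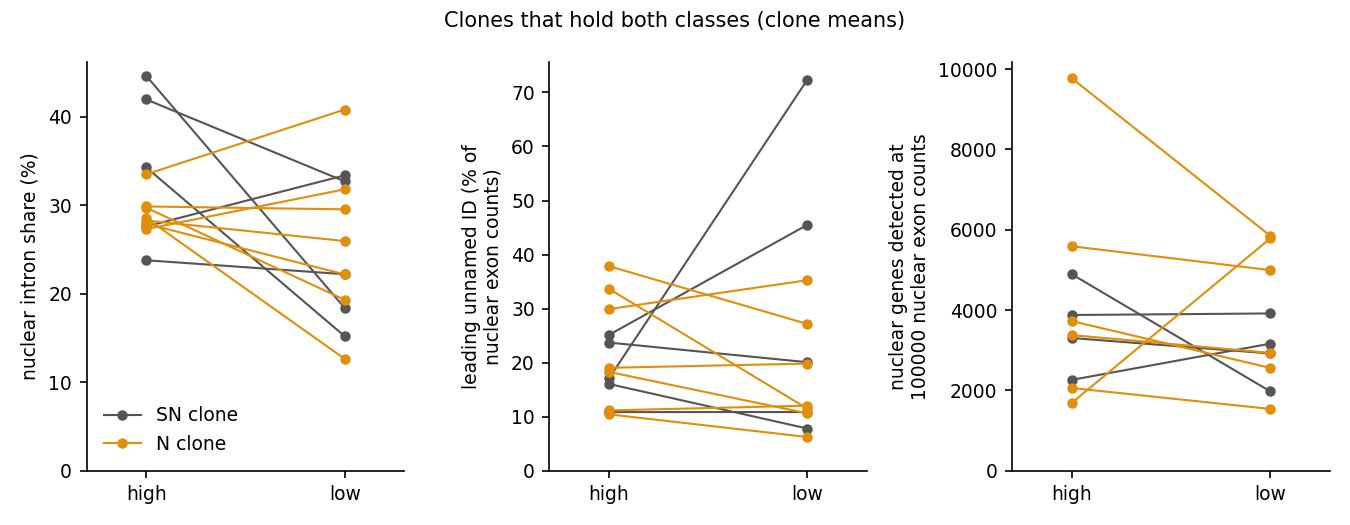
Means of each clone that held both classes, high on the left and low on the right, joined by a line, for the nuclear intron share (12 clones), the share of the leading unnamed ID (12 clones) and the nuclear genes detected at 100000 counts (10 clones). The intron share is higher in high cells in 9 of 12 clones, and the lines of the other measures run both ways.

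Whether high and low cells differed in another way in SN than in N clones was tested with an interaction term. Of 5856 genes, 1 passed (0.0171%, edgeR), Fam19a2, which encodes a secreted chemokine-like protein of the nervous system, and none passed in the other direction (0%). Before adjustment, 4.51% of the genes had a higher and 1.49% a lower effect in SN clones at p under 0.05. Fam19a2 had 0, 13.7 and 424 CPM in high and 0, 0.445 and 105.2 CPM in low sums of SN clones. In N clones it had 0, 0 and 0.538 CPM in high and 0, 21.0 and 281.6 CPM in low sums. The interaction was 12.09 ± 2.49 on the log2 scale (adjusted p = 0.0325), and since the N high sums hold a count in 1 of 10, its size depends on the fit. Without clone 55, which has the highest value, no gene passed, and without clone 45 3 passed, Fam19a2, Ube2w and Carmil3, all with the higher effect in SN clones (adjusted p = 0.0436 each).

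The cells between the limits, which no class used, gave a separate look at the same scale, with log2 of the mean share of a clone as the tested term and log2 values per doubling of the share. Of 14653 genes tested, 53 were higher (0.362%) and 38 lower (0.259%) with a higher share (edgeR), against 6.48% higher and 4.15% lower at an unadjusted p under 0.05. The called genes were rare, with a count in a median of 14 cells. Of the 91 called genes, 3 were among the 5856 of the high to low test: Sec11a of the signal peptidase (5.07 ± 1.18, adjusted p = 0.0217), the ubiquitin ligase gene Rnf114 (4.26 ± 1.05, adjusted p = 0.0296) and Sdad1 (−5.27 ± 1.21, adjusted p = 0.0200). With only those 5856 genes tested, 0 passed (edgeR, smallest adjusted p = 0.102; 4.46% higher and 1.62% lower at an unadjusted p under 0.05). Among the leading genes of the high to low test, Gm28438 stood at 0.55 ± 0.73, Rab22a at 1.73 ± 1.35 and Col4a1 at 0.37 ± 1.83 in the middle cells, on the same side of 0, while Nucb1 turned to −0.45 ± 1.52. All 3 leading lower genes turned to the other side, with Dnajb1 at 2.49 ± 1.51, Becn1 at 1.80 ± 1.18 and Acap2 at 1.40 ± 1.48, and none of these values passed.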

How the data were processed

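Smart-seq3 libraries of 287 single cells were deposited as 2 tables of counts, raw reads over exons and raw reads over introns of each gene, with no scaling by the authors recorded. Of these, 284 had a clone label and 247 were kept. Per the submitters' processing notes, STAR 2.7.9a, R 4.4.0 and build GRCm39 were used. Which program counted the reads, on which annotation and whether molecular identifiers were used is not given in the sources used here, so counts are taken as reads. Symbols came from a table that matched 52083 of 55359 IDs. Exon lengths, pseudogene copies and sequences came from GENCODE M21 (GRCm38), with copies found by BLAST 2.17.0. Coordinates are of that build.

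Counts of nuclear genes were summed per clone and class and tested with edgeR 4.0.16 in R 4.3.3 (TMM, filterByExpr, quasi-likelihood F test, Benjamini-Hochberg, threshold 0.05) with plate and log2 of the mean number of detected genes as covariates. Standard errors are the absolute log2 fold change divided by the root of F. DESeq2 1.42.0 and limma 3.58.1 (voom) were alternatives. Clone means of single measures were compared by permutation tests, exact by sign flips over clones with both classes and within plates over the others. The difference permuted within plates was that of the means over all plates, not adjusted for plate. The planned test of nuclear exon counts per cell is not reported, since they are part of the rule's denominator. Of the tests, only the edgeR test of high against low exon counts was tried on simulated data. The classes, lists and tests were chosen with earlier results of these data known. Genes named are, per direction, the 3 of smallest p (12 where that many passed) and the 2 leading unnamed ones, the member of smallest p in each list, other members among a list's 3 leading ones with an unadjusted p under 0.05, and Emx1. The remaining 2 leading members of a list are not named otherwise. The leading gene of 1 list is not reported here. Skil, Lmbr1, Sec11a, Rnf114, Sdad1, Ube2w, Carmil3 and the marker genes given by cells with a count were named after their values were seen.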

Additional observations from a re-analysis of the deposited data

Results flagged for a closer look

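The difference between high and low cells in Fam19a2 was not the same in SN as in N clones by the interaction test of edgeR (12.09 ± 2.49 on the log2 scale, adjusted p = 0.0325). The high over low difference ran upward in SN clones, with means of 97.3 CPM in high and 16.1 CPM in low sums, and downward in N clones, with 0.0538 CPM in high and 56.8 CPM in low sums. The gene was counted in 17 of 29 high and 9 of 22 low cells of SN clones, and in 1 of 15 high and 21 of 40 low cells of N clones. Only 1 of the 10 N high sums holds a count, so the size of the fold depends on the fit. Without clone 55 the estimate was 11.83 and did not pass.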

How the results depend on the processing

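Values above 0 are higher in high cells, and the cause of each change was not tested unless said. The test of nuclear exon counts called 0 genes in edgeR under all settings but 3: 4208 genes with no filter on low counts, 1 (Gm28438) with limits of 8% and 4%, and 564 with the share as a continuous term over all kept cells, where the called genes had a count in a median of 10 cells and 1 was among the 5856. Restricted to those 5856 genes, a setting chosen after seeing the data, the continuous term called 0. DESeq2 called 4 and limma-voom 1. With the clone as a replicate block (paired over the 12 clones with both classes), 0 of 3158 exon genes and 0 of 1590 intron genes passed, with a median log2 fold change over all exon genes of 0.68 (0 of 2822 and 0.41 without clone 45), and with the leading unnamed ID left out that median was 0.11. The intron test called 2 genes with RLE size factors, 3033 with no filter (median of 8 cells, 29 of them among the 2959), and 0 without plate 3 or, chosen after seeing the data, without clone 62 or clone 45. The difference between SN and N clones gave 1268 calls with no filter 0 without clone 55 and 3 without clone 45, and the middle cells 5012 with no filter, 3 without the detected-gene covariate and 0 over the 5856 genes, where the settings that drop clone 55 or 45 or keep only the 5856 genes were also chosen after seeing the data.

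Signs turned for 17 gene values, none of them called. With the leading unnamed ID left out, Becn1 stood at 0.10, Acap2 at 0.77, Phgdh at 0.14 and Hes6 at 0.54. Within plate 2, Aldoc stood at 0.17, Nr4a3 at 1.64, Hes6 at 1.74 and Map2 at 0.03. In N clones alone, Gm49336 stood at −0.23, Bcl2l1 at −1.06 and Emx1 at −0.84, and in SN clones alone Hs3st4 at 0.34. Single turns were Lrpprc at −0.04 (limma-voom), Gpx4 at 0.04 (within plate 1), Snhg11 at 0.25 (clone as replicate block), Hes6 at 0.73 (without plate 3) and Emx1 at −0.17 (limits of 8% and 4%). Of the other gene values, over all tests together, 985 kept sign and side of the threshold, 27 came to pass it and 37 no longer did. As no gene passed the main high to low exon test, those 37 belong to the other tests. The intron share of clones with 1 class turned to −1.683 percentage points (limits of 8% and 4%) and −0.6764 (within plate 2). The share of the unnamed ID turned to 0.5625 percentage points in clones with both classes (cells with at least 2000 genes) and to 3.401 in clones with 1 class (within plate 2). Genes at equal depth turned to −563 in clones with both classes (limits of 8% and 4%).

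Of the sums, 16 high and 16 low ones are single cells, and the median standard error of a gene was 0.906 on the log2 scale. How much of it comes from depth and how much from the spread between clones was not tested. The classes are ends of a continuum, and plate, clone and class are partly tied.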
